A study of Mus musculus with 9 samples.

Results

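The imprinted Dlk1-Dio3 locus of the mouse was followed through RNA of embryonic stem (ES) cells that lacked Dgcr8, lacked Dicer or carried both genes. Its members were the transcript clusters of the array, called rows here, whose identifiers lie between Dlk1 and Dio3 in the array's numbering and whose gene symbol begins with Mir, together with every row of Dlk1, Meg3, Rtl1, Rian, Mirg or Dio3. This gave 48 of the 35557 rows of the value table. Of these, 42 were miRNA rows and 7 were rows of the long transcripts, with the row that carries the symbols Mirg and Mir410 counted under both. Levels were compared between Dgcr8 knockout (Dgcr8 KO), Dicer knockout (Dicer KO) and wild-type (WT) ES cells, with 3 arrays per genotype and 9 in all. The WT line was v6.5, no treatment was applied, and the sources used here do not say whether each mutant line is 1 clone. Cells were plated in triplicate while the methods speak of biological replicates, so that the p-values below measure the spread between cultures of 1 line each, which may be technical.

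The locus lies on chromosome 12. Dlk1 (a membrane protein of the Notch ligand family), Rtl1 (derived from a retrotransposon) and Dio3 (the deiodinase that inactivates thyroid hormone) are expressed from the chromosome inherited from the father. The noncoding RNAs Meg3, Rian and Mirg are expressed from the maternal chromosome, as are an RNA antisense to Rtl1, box C/D small nucleolar RNAs (snoRNAs) in the introns of Rian, and a very large set of miRNAs. In mouse ES and induced pluripotent cells this maternal program is known to be silenced in some lines. A miRNA begins as a hairpin in a long primary transcript, from which the Microprocessor of Drosha and its RNA-binding partner Dgcr8 cuts the hairpin. Dicer then cuts the released hairpin into mature products. Mature miRNAs of this kind are therefore missing in both mutants, while the cut of the primary transcript needs Dgcr8 and not Dicer. A row named for a miRNA gene reads RNA that carries the hairpin sequence, and does not tell a primary transcript from a cut hairpin.

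Hairpins are shown for the 5 miRNA rows with the largest rise in Dgcr8 KO cells relative to WT and for Mir539, the 1 miRNA row that fell there, because the results turn on these. They come from the RefSeq annotation of GRCm38.p6, are written 5′ to 3′ on the plus strand of chromosome 12, and have the annotated mature products in capitals. Of 42 miRNA genes on the member rows, 41 matched a RefSeq hairpin (Mir666 was not matched), and all 41 lie on the plus strand. Together they hold 78 annotated mature products.
Mir127 (chr12:109592846-109592915): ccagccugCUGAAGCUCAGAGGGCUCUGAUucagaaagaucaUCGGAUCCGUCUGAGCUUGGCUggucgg
Mir434 (chr12:109594506-109594599): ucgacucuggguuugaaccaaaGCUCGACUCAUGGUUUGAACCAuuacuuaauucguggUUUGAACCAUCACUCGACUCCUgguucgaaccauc
Mir136 (chr12:109595327-109595388): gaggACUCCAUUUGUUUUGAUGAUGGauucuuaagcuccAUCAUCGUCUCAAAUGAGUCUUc
Mir376b (chr12:109723458-109723539): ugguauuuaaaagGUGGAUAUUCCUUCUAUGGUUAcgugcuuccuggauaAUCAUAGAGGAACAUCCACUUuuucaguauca
Mir369 (chr12:109743418-109743496): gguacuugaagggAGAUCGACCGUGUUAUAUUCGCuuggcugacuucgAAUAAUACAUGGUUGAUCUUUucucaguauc
Mir539 (chr12:109728129-109728202): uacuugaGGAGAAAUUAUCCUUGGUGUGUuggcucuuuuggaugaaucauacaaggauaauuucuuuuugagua

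The mature products of the locus carry many different targeting sequences. The seed, bases 2 to 8 of the mature product, took 75 distinct forms among the 78 products, and 3 seeds were each shared by products of 2 genes. These pairs are shown with the seed in capitals, since the rows of genes that share a seed could be set side by side.
miR-379-3p: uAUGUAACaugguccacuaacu
miR-411-3p: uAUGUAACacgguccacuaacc
miR-494-5p: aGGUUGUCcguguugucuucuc
miR-410-5p: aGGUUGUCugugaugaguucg
miR-376c-5p: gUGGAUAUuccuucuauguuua
miR-376b-5p: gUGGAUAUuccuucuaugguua
Rows of genes with a shared seed were far apart in 2 of the 3 pairs. The log2 ratio of Dgcr8 KO to WT was 3.62 for the Mir376b row and 0.54 for the Mir376c row, which did not pass the test described below. The Mir376c row was dim, averaging 3.44 in Dgcr8 KO cells, 2.61 in Dicer KO cells and 2.90 in WT cells on the log2 scale. Its signal over background is unknown, so that the small ratio says little about this hairpin. The ratio of Dgcr8 KO to WT was 2.73 for the Mirg and Mir410 row and 0.22 for the Mir494 row, which did not pass either. In the third pair neither Mir379, at 0.19, nor Mir411, at 0.32, passed. The mir-376 hairpins are close in sequence, and whether RNA of 1 of them also binds the probes of another was not tested.

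The targeted genes were lowest in their own mutants. Dgcr8 averaged 8.85 in Dgcr8 KO cells, 9.99 in Dicer KO cells and 9.80 in WT cells on the log2 scale, and Dicer1 averaged 10.4 in Dgcr8 KO cells, 8.36 in Dicer KO cells and 10.2 in WT cells. Array medians lay between 6.49 and 6.56, and the correlation between arrays over all rows was 0.989 to 0.994 within a genotype and 0.975 to 0.987 between genotypes. The array weights estimated from the spread were lowest for WT replicate 1 (0.327) and Dgcr8 KO replicate 2 (0.601). The 10 ES cell markers had median levels of 11.7 in Dgcr8 KO cells, 11.7 in Dicer KO cells and 11.4 in WT cells. Of these, 5 rose and 2 fell in Dgcr8 KO cells relative to WT, against 11.1% and 12.6% of all rows. In Dicer KO cells 6 rose and 2 fell, against 12.6% and 13.2% of all rows. The largest change was in Lin28a, an RNA-binding protein that blocks let-7 maturation, at 7.81 in Dgcr8 KO cells, 7.35 in Dicer KO cells and 10.8 in WT cells. The lists of fibroblast, neuron, skeletal muscle, primitive endoderm and trophoblast markers had medians between 5.80 and 7.16 in every genotype. These arrays hold no count or depth, so that their number limits the precision. In bulk cultures, fewer cells with a transcript and less of it per cell cannot be told apart.

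Most miRNA rows of the locus rose in Dgcr8 KO cells relative to WT. With limma over all rows and an adjusted p under 0.05, 29 of 42 miRNA rows rose and 1 fell, and among all 48 members 31 rose and 3 fell. Over the whole array 11.1% of rows rose and 12.6% fell. The median log2 ratio was 1.15 over the 42 miRNA rows and -0.0159 over all rows. A rise of at least 2-fold was called in 22 miRNA rows, against 1.89% of all rows, and a rise of at least 4-fold in 14, against 0.357%. On 30 of the 42 miRNA rows all Dgcr8 KO arrays lay above all WT arrays, which held for 15.7% of all rows.

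**Figure D1:**
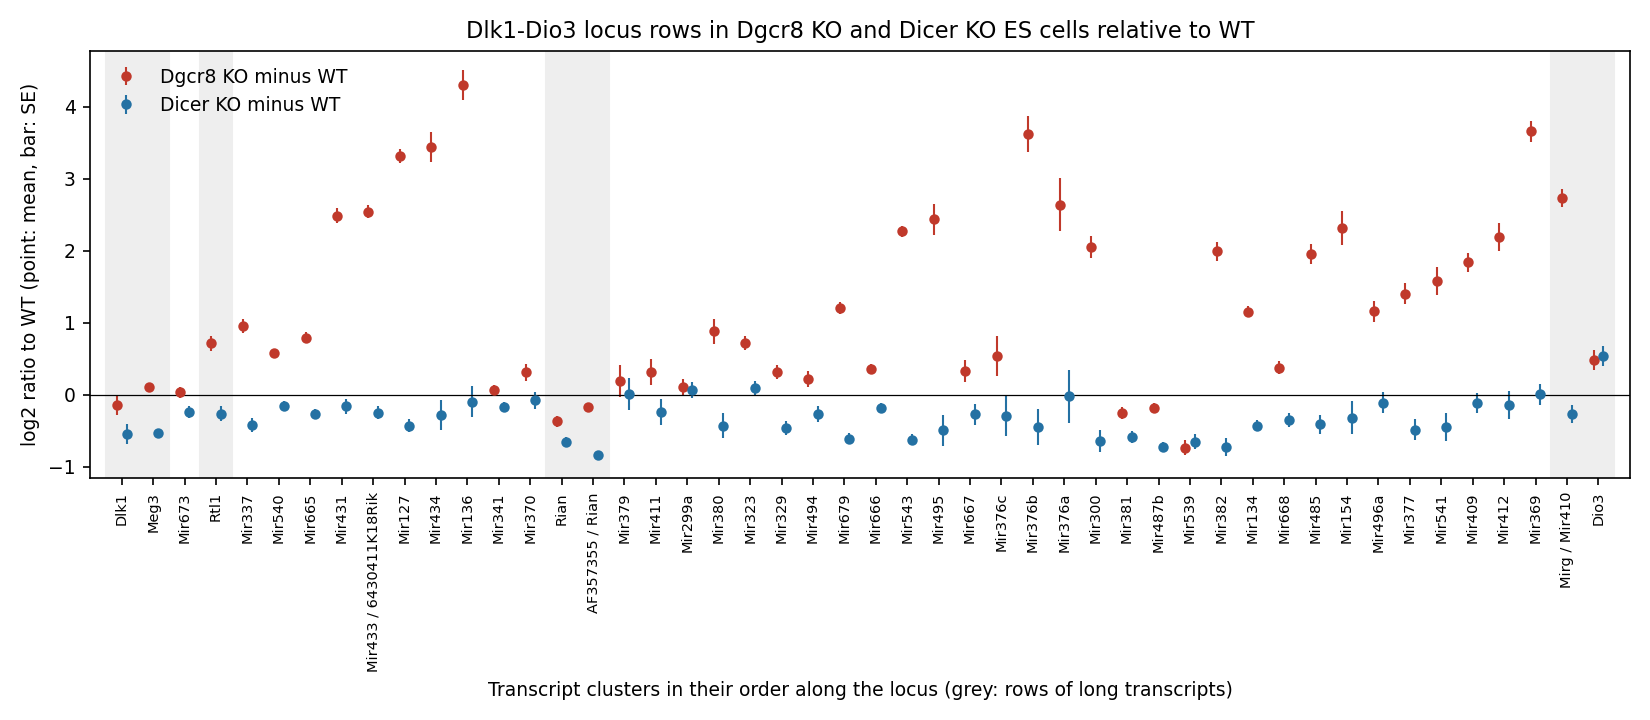
The log2 ratio to WT (points, with SE) for Dgcr8 KO (red) and for Dicer KO (blue) is plotted for the 48 member rows in their order along the locus, with the rows of long transcripts shaded grey. Most miRNA rows sit above 0 in Dgcr8 KO cells, up to 4.29 for Mir136, while 43 of 48 rows sit below 0 in Dicer KO cells. Of these 48 rows 18 were called lower in Dicer KO cells. Over the whole array 21862 of 35557 rows sit below 0 in Dicer KO cells and 16497 above 0 in Dgcr8 KO cells.

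The 8 miRNA rows from Mir337 to Mir136, opposite Rtl1, all rose in Dgcr8 KO cells. Their median log2 ratio to WT was 2.51, and 11.1% of all rows rose. Mir673, which also lies inside the RefSeq span of Rtl1, was not counted among these 8 rows. It was not called, at a log2 ratio to WT of 0.04 (adjusted p = 0.816, limma). Mir136 was measured at log2 levels of 8.63, 8.79 and 8.51 in Dgcr8 KO cells, 4.69, 3.80 and 4.28 in Dicer KO cells and 4.24, 4.57 and 4.24 in WT cells. Its Dgcr8 KO arrays lay far above the other 6, which overlapped each other. The log2 ratio of Dgcr8 KO to WT was 4.29 ± 0.21 (SE), a 19.6-fold difference (adjusted p = 5.16e-06, limma), and it ranked 2 among the 35557 rows.

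Mir127, whose miR-127 sits opposite the Rtl1 coding sequence and is known to direct cleavage of Rtl1 mRNA, was measured at 10.14, 10.32 and 10.24 in Dgcr8 KO cells, 6.49, 6.44 and 6.55 in Dicer KO cells and 7.06, 6.71 and 6.99 in WT cells. The 3 genotypes did not overlap, with Dgcr8 KO highest and Dicer KO lowest. The ratio to WT was 3.32 ± 0.10 in Dgcr8 KO cells (9.96-fold, adjusted p = 4.93e-07) and -0.43 ± 0.10 in Dicer KO cells (adjusted p = 0.0119). Mir434 was measured at 7.92, 8.64 and 7.87 in Dgcr8 KO cells, 4.20, 4.64 and 4.44 in Dicer KO cells and 4.78, 4.57 and 4.76 in WT cells. Its Dgcr8 KO arrays were again apart from the others, replicate 2 being the highest, and the log2 ratio of Dgcr8 KO to WT was 3.44 ± 0.21 (adjusted p = 1.27e-05).

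The row of Mir433, which also carries the symbol of the noncoding RNA 6430411K18Rik, was among the brightest of the locus. It was measured at 9.98, 10.12 and 10.22 in Dgcr8 KO cells, 7.29, 7.20 and 7.46 in Dicer KO cells and 7.67, 7.51 and 7.51 in WT cells, so that all 3 groups were apart. Relative to WT the log2 ratio was 2.54 ± 0.09 in Dgcr8 KO cells (5.81-fold, adjusted p = 1.11e-06) and -0.25 ± 0.09 in Dicer KO cells, which did not pass (adjusted p = 0.0823) and passed without Dicer KO replicate 3 (adjusted p = 0.0439). In the other rows of this group the log2 ratio of Dgcr8 KO to WT was 0.57 for Mir540, 0.79 for Mir665, 0.96 for Mir337 and 2.48 for Mir431.

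In the larger cluster from Mir379 to Mir410, called the Mirg group here, 21 of 31 rows rose in Dgcr8 KO cells and 1 fell, with a median log2 ratio of 1.16 to WT. Of all rows 11.1% rose and 12.6% fell. Mir369 was measured at 8.93, 9.39 and 9.24 in Dgcr8 KO cells, 5.33, 5.72 and 5.56 in Dicer KO cells and 5.47, 5.41 and 5.71 in WT cells. The levels in Dicer KO and WT cells overlapped and those in Dgcr8 KO cells were apart, with a log2 ratio to WT of 3.66 ± 0.14 (12.6-fold, adjusted p = 1.81e-06). Mir376b was measured at 8.07, 8.65 and 8.28 in Dgcr8 KO cells, 4.21, 4.32 and 4.28 in Dicer KO cells and 4.19, 4.74 and 5.22 in WT cells. Here the WT arrays were spread over 1 log2 unit and included the Dicer KO levels, while the log2 ratio of Dgcr8 KO to WT was 3.62 ± 0.25 (12.3-fold, adjusted p = 2.46e-05). The ratio of Dicer KO to WT, -0.45 ± 0.25, did not pass (adjusted p = 0.24) and passed without WT replicate 1 (adjusted p = 0.0375).

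The other rows of the Mirg group that rose in Dgcr8 KO cells had log2 ratios between 0.36 (Mir666) and 2.73 (the Mirg and Mir410 row). Dgcr8 KO replicate 2 was the highest of the 3 Dgcr8 KO arrays on 31 of the 42 miRNA rows of the locus. In Mir376a the levels were 5.15, 6.59 and 5.23 in Dgcr8 KO cells, 2.98, 3.18 and 2.83 in Dicer KO cells and 2.65, 3.21 and 3.19 in WT cells. All Dgcr8 KO arrays were still apart from the rest, and the log2 ratio to WT was 2.64 ± 0.37 (adjusted p = 0.00109). Without any 1 of the 9 arrays, the number of members that rose in Dgcr8 KO cells was between 29 and 32.

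**Figure D2:**
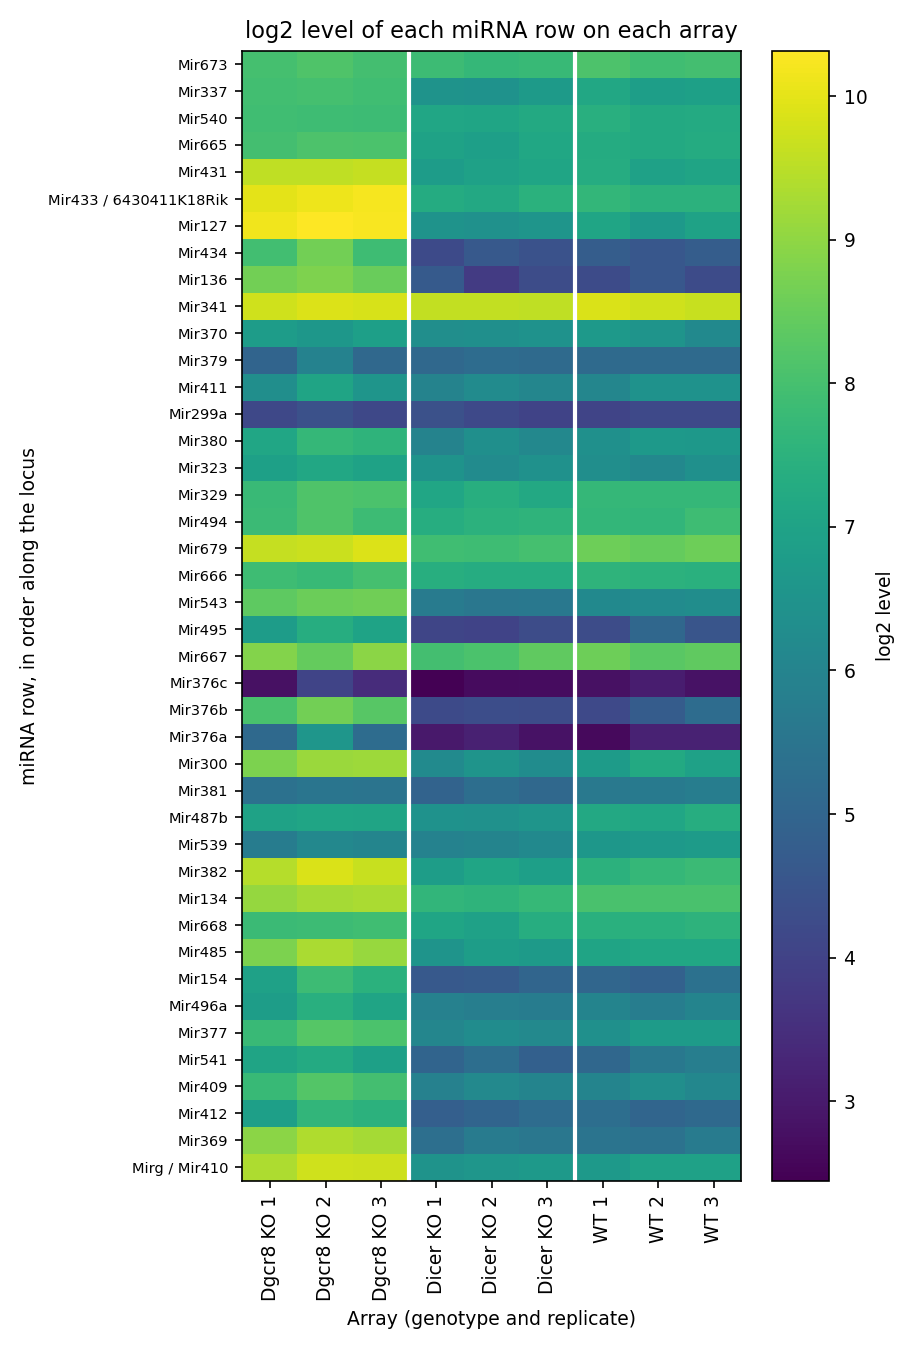
Each row is a miRNA row in order along the locus, each column an array, and the colour gives the log2 level. The Dgcr8 KO arrays differ from both other genotypes over most rows (array medians over the 42 rows were 7.85, 8.14 and 7.94 in Dgcr8 KO cells, 6.28, 6.36 and 6.34 in Dicer KO cells and 6.64, 6.70 and 6.77 in WT). On Mir341 and Mir673 the Dgcr8 KO and WT arrays overlap, and the Dicer KO arrays lie slightly below both.

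Some hairpin rows went the other way or were not called. Mir539 was measured at 5.76, 6.12 and 6.02 in Dgcr8 KO cells, 5.95, 6.01 and 6.19 in Dicer KO cells and 6.62, 6.69 and 6.77 in WT cells. Both mutants lay below WT and overlapped each other. Relative to WT the log2 ratio was -0.73 ± 0.10 in Dgcr8 KO cells (adjusted p = 0.00129) and -0.65 ± 0.10 in Dicer KO cells (adjusted p = 0.0022). The 12 miRNA rows that were not called in Dgcr8 KO relative to WT were Mir673, Mir341, Mir370, Mir379, Mir411, Mir299a, Mir329, Mir494, Mir667, Mir376c, Mir381 and Mir487b, with log2 ratios between -0.25 and 0.54. Values on the 3 WT arrays were identical for Mir379 and for Mir329, so that their spread in WT was measured as 0.

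The brightest miRNA row of the locus over the 9 arrays was Mir341, in the region of Rian. It was measured at 9.76, 9.89 and 9.84 in Dgcr8 KO cells, 9.61, 9.60 and 9.57 in Dicer KO cells and 9.88, 9.75 and 9.65 in WT cells, with the Dgcr8 KO and WT arrays overlapping. Its log2 ratio to WT was 0.07 ± 0.07 in Dgcr8 KO cells (adjusted p = 0.572) and -0.17 ± 0.07 in Dicer KO cells (adjusted p = 0.111). The difference of 0.24 between Dgcr8 KO and Dicer KO passed (adjusted p = 0.0482) but did not pass in 7 of the 9 fits that left out 1 array, where the adjusted p reached 0.126. Mir370, the other miRNA near Rian, was 0.31 above WT in Dgcr8 KO cells on the log2 scale and did not pass.

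Other bright rows changed to different degrees. Mir679 was measured at 9.62, 9.69 and 9.90 in Dgcr8 KO cells, 7.90, 7.88 and 8.00 in Dicer KO cells and 8.59, 8.45 and 8.57 in WT cells, 3 groups with no overlap and a log2 ratio to WT of 1.20 ± 0.08 in Dgcr8 KO cells (adjusted p = 2.28e-05) and -0.61 ± 0.08 in Dicer KO cells (adjusted p = 0.000808). Mir134, which is known for a role in dendrites of neurons, was measured at 9.06, 9.25 and 9.33 in Dgcr8 KO cells, 7.64, 7.56 and 7.71 in Dicer KO cells and 8.07, 8.05 and 8.07 in WT cells. It showed the same order with no overlap, at a log2 ratio to WT of 1.15 ± 0.07 in Dgcr8 KO cells (adjusted p = 1.87e-05) and -0.42 ± 0.07 in Dicer KO cells (adjusted p = 0.00346). Mir667 was measured at 8.86, 8.47 and 8.94 in Dgcr8 KO cells, 7.98, 8.10 and 8.39 in Dicer KO cells and 8.57, 8.32 and 8.38 in WT cells. Its groups overlapped apart from Dgcr8 KO against Dicer KO. The log2 ratio of Dgcr8 KO to WT was 0.33 ± 0.15 (adjusted p = 0.17, and 0.0412 without Dgcr8 KO replicate 2), and that of Dgcr8 KO to Dicer KO was 0.60 ± 0.15 (adjusted p = 0.0288), which did not pass in 4 of the 9 fits that left out 1 array (adjusted p up to 0.0981).

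In Dicer KO cells relative to WT the miRNA rows changed little and mostly downward. Of 42 miRNA rows 0 rose and 14 fell, with a median log2 ratio of -0.27 against -0.0546 over all rows, and among all 48 members 1 rose and 18 fell. Over the whole array 12.6% of rows rose and 13.2% fell. At an unadjusted p under 0.05, 0 miRNA rows rose and 22 fell, against 15.9% and 20% of all rows. SAM (significance analysis of microarrays, at a false discovery rate of 5%) called 0 higher and 16 lower, against 13% and 12.7% of all rows. Leaving out 1 array put the number of members that fell between 12 (without Dicer KO replicate 1) and 20 (without Dgcr8 KO replicate 1).

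Among the miRNA rows, the largest falls in Dicer KO cells were in the Mirg group. Mir382 was measured at 6.83, 7.08 and 6.90 in Dicer KO cells and 7.49, 7.67 and 7.80 in WT cells, a log2 ratio of -0.72 ± 0.13 (adjusted p = 0.00384) with no overlap. The same row was measured at 9.43, 9.87 and 9.64 in Dgcr8 KO cells, 1.99 ± 0.13 above WT (adjusted p = 1.88e-05). Mir487b was measured at 6.97, 7.06 and 7.06 in Dgcr8 KO cells, 6.47, 6.44 and 6.55 in Dicer KO cells and 7.18, 7.09 and 7.35 in WT cells. The Dicer KO arrays were below all others, and the ratio to WT was -0.18 ± 0.07 in Dgcr8 KO cells (adjusted p = 0.126) and -0.72 ± 0.07 in Dicer KO cells (adjusted p = 0.000167).

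Rows could fall in Dicer KO cells and rise in Dgcr8 KO cells. Mir543 was measured at 8.37, 8.54 and 8.61 in Dgcr8 KO cells, 5.72, 5.57 and 5.59 in Dicer KO cells and 6.19, 6.24 and 6.30 in WT cells. The 3 groups were apart, at log2 ratios to WT of 2.27 ± 0.07 in Dgcr8 KO cells (adjusted p = 7.96e-07) and -0.62 ± 0.07 in Dicer KO cells (adjusted p = 0.00046). Mir300 was measured at 8.76, 9.14 and 9.16 in Dgcr8 KO cells, 6.22, 6.51 and 6.26 in Dicer KO cells and 6.75, 7.21 and 6.95 in WT cells. It had the same order, with log2 ratios to WT of 2.05 ± 0.15 in Dgcr8 KO cells (adjusted p = 3.92e-05) and -0.64 ± 0.15 in Dicer KO cells (adjusted p = 0.0162). The fall of Mir300 did not pass without Dicer KO replicate 1 (adjusted p = 0.0606) or without Dicer KO replicate 3 (adjusted p = 0.056). In all, relative to WT, 10 members rose without Dgcr8 and fell without Dicer (0.425% of all rows), and 20 rose without Dgcr8 and were not called without Dicer (2.89% of all rows). Both contrasts use the same WT arrays.

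The direct comparison of Dgcr8 KO with Dicer KO cells does not use the WT levels. Here 39 of 48 members were higher in Dgcr8 KO cells and 0 were lower, against 7.53% of all rows higher and 9.4% lower. At an unadjusted p under 0.05 44 members were higher and 0 lower, against 14.7% and 15.3% of all rows. SAM also called 44 higher and 0 lower, against 10.6% and 13.9%. Among the 42 miRNA rows 35 were higher, with a median log2 ratio of 1.48 against 0.0304 over all rows. The 5 rows with the largest log2 ratio among all 35557 were rows of this locus, in the order Mir136 (4.39), Mir376b (4.06), Mir127 (3.74), Mir434 (3.71) and Mir369 (3.65). Of 48 rows on the whole array (0.135%) that were called at least 4-fold higher in Dgcr8 KO than in Dicer KO cells, 17 belonged to the locus (35.4%) and 22 were rows of miRNAs elsewhere. By the calls relative to WT and to Dicer KO together, 30 members were higher in Dgcr8 KO than in either of the other genotypes and 0 were lower, while 3.34% of all rows were higher and 3.55% lower. SAM gave 30 higher and 0 lower, against 3.11% and 3.7% of all rows. Likewise 16 members were lower in Dicer KO than in either WT or Dgcr8 KO, against 3.56% of all rows.

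Apart from the row shared by Mirg and Mir410, the long transcripts changed by under 2-fold. Meg3, a noncoding RNA expressed from the maternal chromosome, was the brightest member of the locus. It was measured at 10.84, 10.94 and 10.93 in Dgcr8 KO cells, 10.24, 10.23 and 10.30 in Dicer KO cells and 10.79, 10.76 and 10.82 in WT cells. Dicer KO arrays lay below all others and Dgcr8 KO arrays slightly above WT. Meg3 had a ratio to WT of 0.12 ± 0.05 in Dgcr8 KO cells, which did not pass (adjusted p = 0.142), and -0.53 ± 0.05 in Dicer KO cells, a 1.45-fold fall (adjusted p = 9.88e-05). After a repeated quantile normalization (0.18, adjusted p = 0.0257) or cyclic loess (0.18, adjusted p = 0.0334) the rise of Meg3 in Dgcr8 KO cells passed.

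Rian, host of the box C/D snoRNAs, fell in both mutants. Its own row was measured at 7.62, 7.70 and 7.62 in Dgcr8 KO cells, 7.26, 7.38 and 7.43 in Dicer KO cells and 7.90, 8.12 and 8.02 in WT cells, 3 groups with no overlap. The log2 ratio to WT was -0.37 ± 0.07 in Dgcr8 KO cells (adjusted p = 0.0066) and -0.66 ± 0.07 in Dicer KO cells (adjusted p = 0.000269). The row shared by Rian and the snoRNA AF357355 was measured at 9.08, 9.06 and 9.06 in Dgcr8 KO cells, 8.41, 8.39 and 8.41 in Dicer KO cells and 9.22, 9.22 and 9.27 in WT cells. It had the same order, with ratios to WT of -0.17 ± 0.04 in Dgcr8 KO cells (adjusted p = 0.0136) and -0.84 ± 0.04 in Dicer KO cells (1.79-fold lower, adjusted p = 2.86e-06). The small fall of that row in Dgcr8 KO cells did not pass after cyclic loess (adjusted p = 0.0535), by SAM, or in a fit to the arrays of these 2 genotypes alone (adjusted p = 0.0553). The difference of 0.29 between Dgcr8 KO and Dicer KO in the row of Rian alone (adjusted p = 0.0288) did not pass in 5 of the 9 fits that left out 1 array (adjusted p up to 0.0971).

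The row that carries both Mirg, the noncoding RNA at the far end of the cluster, and Mir410 behaved as the hairpin rows did. It was measured at 9.33, 9.75 and 9.71 in Dgcr8 KO cells, 6.50, 6.57 and 6.70 in Dicer KO cells and 6.69, 6.94 and 6.96 in WT cells, with only Dgcr8 KO clearly apart. The log2 ratio to WT was 2.73 ± 0.12 in Dgcr8 KO cells (6.65-fold, adjusted p = 3.45e-06) and -0.27 ± 0.12 in Dicer KO cells (adjusted p = 0.162). Since the row bears 2 symbols, Mirg and the Mir410 hairpin were not measured apart.

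Rtl1, the paternally expressed gene on the other strand from Mir127 and its neighbours, was measured at 7.37, 7.27 and 7.43 in Dgcr8 KO cells, 6.45, 6.44 and 6.26 in Dicer KO cells and 6.70, 6.80 and 6.43 in WT cells. Dgcr8 KO arrays were above all others, and Dicer KO and WT arrays overlapped. The log2 ratio to WT was 0.72 ± 0.10 in Dgcr8 KO cells (1.64-fold, adjusted p = 0.00136) and -0.26 ± 0.10 in Dicer KO cells, which did not pass (adjusted p = 0.109) and passed without WT replicate 3 (adjusted p = 0.0193). The strand read by each probe is not given in the sources used here, so that whether RNA antisense to Rtl1 adds to its row was not tested.

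Dlk1 and Dio3, the protein-coding genes at the ends of the locus, differed in direction in Dicer KO cells. Dlk1 was measured at 7.65, 7.46 and 7.75 in Dgcr8 KO cells, 7.23, 7.01 and 7.41 in Dicer KO cells and 7.97, 7.74 and 7.57 in WT cells, and the Dgcr8 KO and WT arrays overlapped. Its log2 ratio to WT was -0.14 ± 0.14 in Dgcr8 KO cells (adjusted p = 0.553) and -0.54 ± 0.14 in Dicer KO cells (adjusted p = 0.0201). That fall did not pass in 4 of the 9 fits that left out 1 array: without WT replicate 1 or 2 or without Dicer KO replicate 1 or 2, the adjusted p was between 0.0503 and 0.0674. Dio3 was measured at 6.31, 5.88 and 5.99 in Dgcr8 KO cells, 6.18, 5.98 and 6.19 in Dicer KO cells and 5.77, 5.37 and 5.60 in WT cells. It was the 1 member called higher in both mutants, by 0.48 ± 0.14 in Dgcr8 KO cells (adjusted p = 0.038) and 0.54 ± 0.14 in Dicer KO cells (adjusted p = 0.022). The Dgcr8 KO call did not pass in 6 of the 9 fits that left out 1 array (adjusted p up to 0.117), and the Dicer KO call in 4 of them (up to 0.074).

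**Figure D3:**
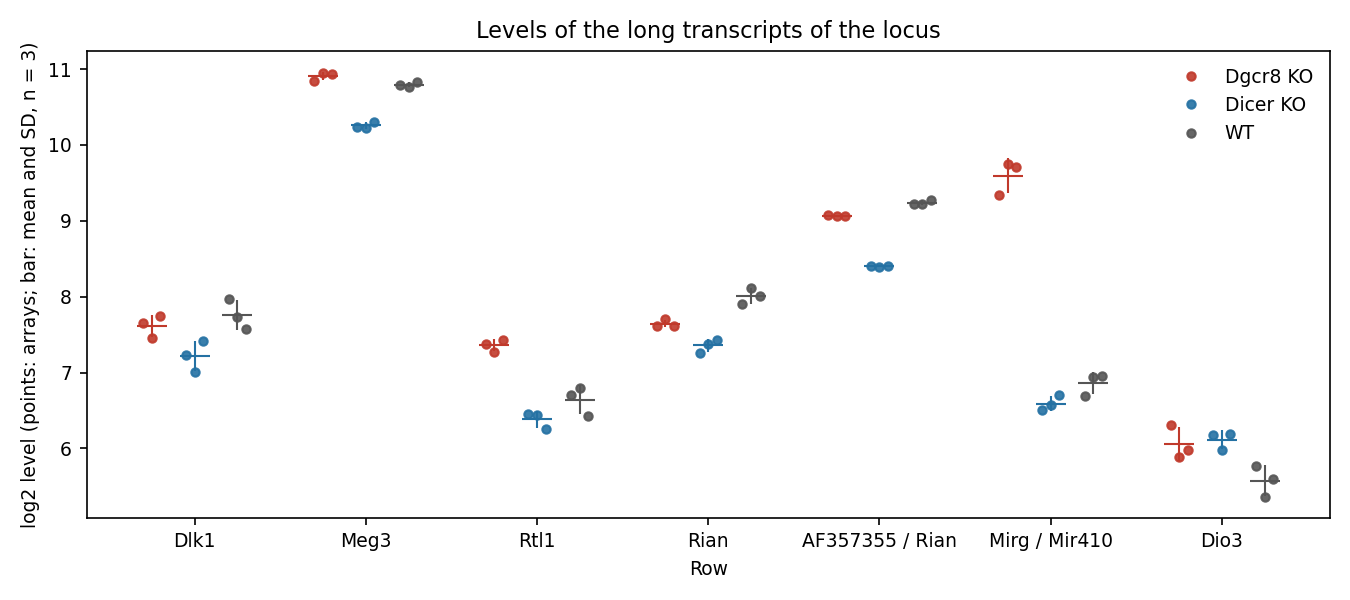
Points are the log2 levels on single arrays and the bars the mean and SD of 3 arrays for the 7 rows of long transcripts, in Dgcr8 KO (red), Dicer KO (blue) and WT (grey) cells. Meg3 and both rows of Rian are lowest in Dicer KO cells, whereas the Mirg and Mir410 row averages 9.60 in Dgcr8 KO cells, 6.59 in Dicer KO cells and 6.86 in WT cells.

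Small nucleolar RNAs of the locus, a class that is made without Dgcr8 or Dicer, fell in Dicer KO cells. Of 4 snoRNA rows (the row shared with Rian among them) 0 rose and 1 fell in Dgcr8 KO cells relative to WT (11.1% and 12.6% of all rows). All 4 fell in Dicer KO cells (13.2% of all rows), with a median log2 ratio of -0.58. At an unadjusted p under 0.05 limma also had 0 higher in Dgcr8 KO cells (14.9% of all rows), as had SAM (8.92% of all rows). The lowest was the shared row given above. DQ267102 was measured at 9.47, 9.44 and 9.39 in Dgcr8 KO cells, 8.87, 8.88 and 8.91 in Dicer KO cells and 9.58, 9.52 and 9.53 in WT cells. Its Dicer KO arrays were well apart from the rest, at -0.66 ± 0.04 relative to WT (adjusted p = 1.72e-05), and its Dgcr8 KO ratio of -0.11 ± 0.04 did not pass (adjusted p = 0.119). AF357341 and DQ267101 had log2 ratios of Dicer KO to WT of -0.49 and -0.50.

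Another 10 rows between Meg3 and Dio3 carry no gene symbol, and the values of 2 of them were identical on every array. With these counted as 1 measurement, 0 of 9 rose and 4 fell in Dgcr8 KO cells, and 0 rose and 7 fell in Dicer KO cells relative to WT, with a median log2 ratio of -0.59 in Dicer KO cells. Of all rows 11.1% rose and 12.6% fell in Dgcr8 KO cells, and 12.6% rose and 13.2% fell in Dicer KO cells. At an unadjusted p under 0.05 and by SAM, 0 rose in either mutant. Of all rows 14.9% rose in Dgcr8 KO cells and 15.9% in Dicer KO cells at that p, and 8.92% and 13% by SAM. All 10 had mean levels below WT in both mutants. Over the whole array, 19058 of 35557 rows were below WT in Dgcr8 KO cells and 21862 in Dicer KO cells.

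In the cluster from Mir337 to Mir136, opposite Rtl1, the Dgcr8 KO ratio was smaller for the 3 hairpins that come first in the direction of transcription. In that order the log2 ratio to WT was 0.96 for Mir337, 0.57 for Mir540, 0.79 for Mir665, 2.48 for Mir431, 2.54 for the Mir433 row, 3.32 for Mir127, 3.44 for Mir434 and 4.29 for Mir136. Across these 8 rows the ratio and the order had a Pearson r of 0.95 and a Spearman rho of 0.93, given as a description because the rows share their arrays and may share a primary transcript. The GC content of the hairpin had a Pearson r of -0.59 with the ratio over the same rows, and the WT level, which comes from the WT arrays that also enter the ratio, an r of -0.72. In the Mirg group the order and the ratio had a Spearman rho of 0.47 over the 30 rows with a matched hairpin.

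**Figure D4:**
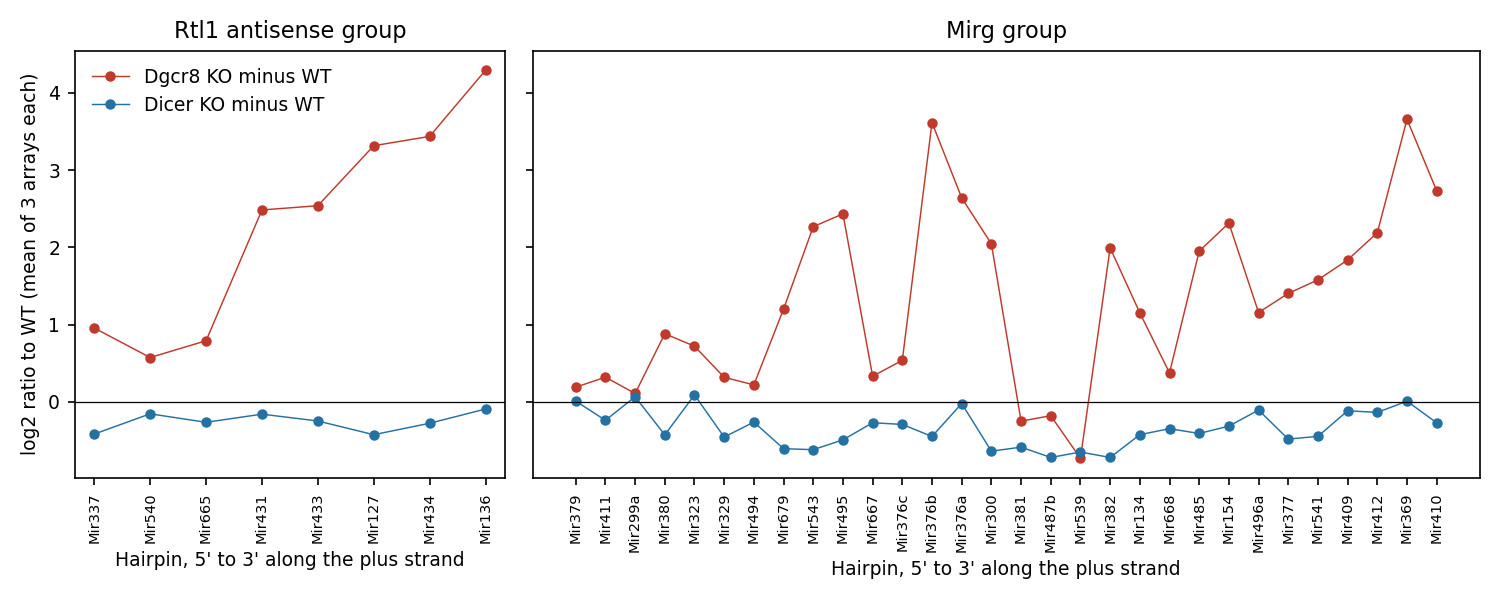
The log2 ratio to WT of Dgcr8 KO (red) and Dicer KO (blue) is drawn for each hairpin in 5′ to 3′ order. The left side shows the 8 rows from Mir337 to Mir136, opposite Rtl1, and the right side 30 rows of the Mirg group. On the left the Dgcr8 KO ratio is between 0.57 and 0.96 for the first 3 hairpins and between 2.48 and 4.29 for the other 5. On the right it dips to -0.73 at Mir539.

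Within the Mirg group the dip at Mir381, Mir487b and Mir539 lay between stretches of higher ratios. From Mir382 to Mir410 all 12 rows rose in Dgcr8 KO cells, with a median log2 ratio of 1.89, while from Mir379 to Mir539 9 of 19 rows rose, with a median of 0.36. This split was drawn after the values were seen, and 11.1% of all rows rose in Dgcr8 KO cells. By the RefSeq gene spans, 8 of the hairpins lie within Mirg and all 8 rose. Inside the span of Rtl1, on the other strand, lie 9, of which 8 rose and Mir673 was not called. Both hairpins inside Rian were among the rows not called, and 12 of the 22 hairpins outside these spans rose. Over the 41 matched hairpins, GC content had a Pearson r of -0.13 with the Dgcr8 KO ratio and 0.64 with the WT level, and the predicted folding energy per length an r of 0.23 with the ratio.

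Rows of miRNAs from the rest of the genome rose in Dgcr8 KO cells too. Of 296 such rows 92 rose (31.1%) and 2 fell relative to WT, with a median log2 ratio of 0.11, and 49 rose by at least 2-fold. In the locus 69% of miRNA rows rose, while over all rows 11.1% rose, 12.6% fell and 1.89% rose by at least 2-fold. In Dicer KO cells 17 of the 296 rows rose (5.74%) and 16 fell (5.41%), while 0 rose and 33.3% fell in the locus. Of all rows 12.6% rose and 13.2% fell there. Whether these shares differ was not tested, since the rows of the locus were chosen with earlier results known. The levels also differed: in WT cells the median level was 6.67 for the miRNA rows of the locus and 5.43 for those elsewhere, against 6.53 for all rows.

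**Figure D5:**
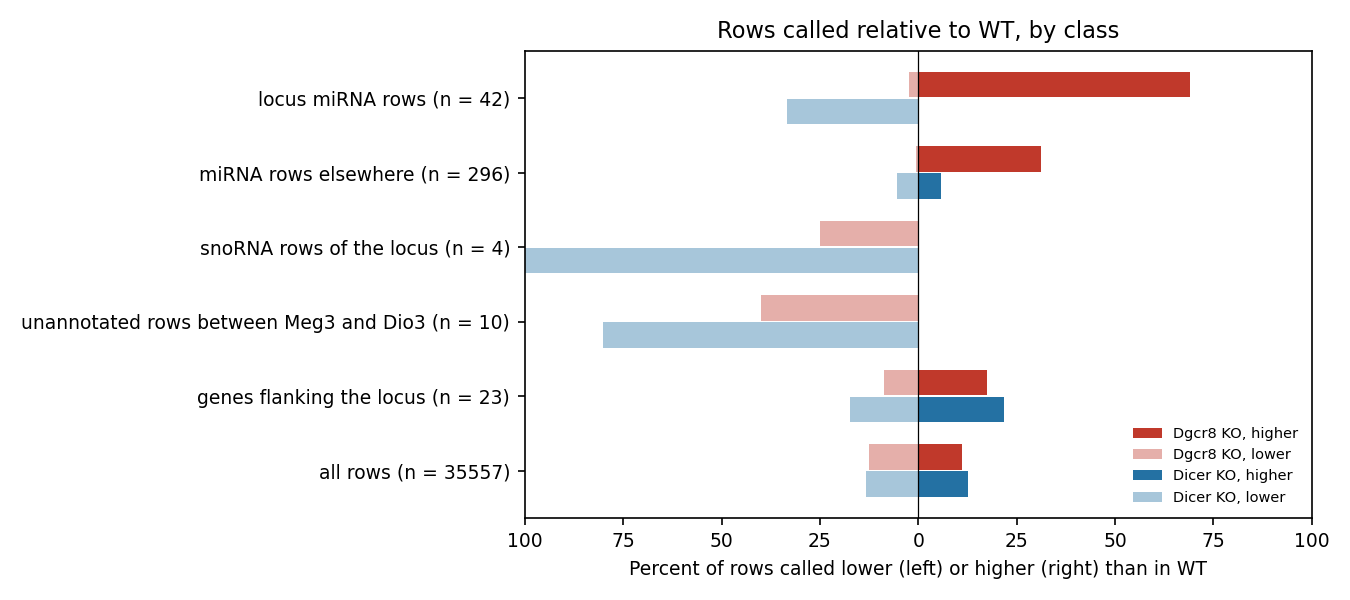
Bars give the percent of rows called higher (right) or lower (left, pale) than in WT in Dgcr8 KO (red) and Dicer KO (blue) cells for each class of rows, with the number of rows in brackets and the identical rows counted singly. The miRNA rows of the locus have the longest bar to the right in Dgcr8 KO cells, at 69%, and the snoRNA rows are 100% lower in Dicer KO cells.

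Of 23 rows of 17 genes that flank the locus, 4 rose (17.4%) and 2 fell (8.7%) in Dgcr8 KO cells, where 11.1% of all rows rose and 12.6% fell. The rows were picked by symbol. Some rows of Hsp90aa1 have identifiers far from those of the other rows and may read RNA from elsewhere in the genome. In Dicer KO cells 5 rose (21.7%) and 4 fell (17.4%), where 12.6% of all rows rose and 13.2% fell. These shares rest on few rows and are given as a description, with median log2 ratios to WT of 0.0128 in Dgcr8 KO cells and -0.0618 in Dicer KO cells. The largest was Mok, a protein kinase gene, at a log2 ratio to WT of 1.13 in Dgcr8 KO cells (adjusted p = 2.24e-05) and 0.75 in Dicer KO cells (adjusted p = 0.000172). Eml1, which codes for a microtubule-binding protein, stood at 0.25 in Dgcr8 KO cells (adjusted p = 0.0126) and -0.37 in Dicer KO cells (adjusted p = 0.00149).

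A list of regulators of DNA methylation, chromatin or transcription that are linked to imprinted loci held 24 rows of 19 genes. Relative to WT, 6 rose (25%) and 9 fell (37.5%) in Dgcr8 KO cells, where 11.1% of all rows rose and 12.6% fell. In Dicer KO cells 3 rose (12.5%) and 10 fell (41.7%), where 12.6% of all rows rose and 13.2% fell. These shares rest on few rows and are given as a description. The largest rise was in Mef2a, a transcription factor, at a log2 ratio to WT of 0.89 in Dgcr8 KO cells (adjusted p = 0.000152) and 1.15 in Dicer KO cells (adjusted p = 3.13e-05). Zfp57, the zinc finger protein that protects methylation at imprinting control regions, was measured at 11.61, 11.71 and 11.70 in Dgcr8 KO cells, 10.53, 10.56 and 10.53 in Dicer KO cells and 11.60, 11.67 and 11.62 in WT cells. Only its Dicer KO arrays stood apart, at a log2 ratio to WT of -1.09 ± 0.05 (adjusted p = 1.76e-06), and Trim28, its cofactor, had a ratio of -0.32 there (adjusted p = 0.000504). The de novo methyltransferase genes Dnmt3a and Dnmt3b fell in both mutants, by 1.71 and 1.32 in Dgcr8 KO cells and by 2.08 and 1.36 in Dicer KO cells on the log2 scale. Their cofactor Dnmt3l, which lay at -0.85 in Dgcr8 KO cells and -1.47 in Dicer KO cells, was 0.61 higher in Dgcr8 KO than in Dicer KO cells (adjusted p = 0.000145). Dppa3, a maternal factor that shields DNA methylation in the early embryo, had ratios to WT of -1.50 and -2.17 on its 2 rows in Dgcr8 KO cells and -2.11 and -2.97 in Dicer KO cells, all of which passed. Their part in the values of the locus was not tested.

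The marker lists of other cell types had medians near that of all rows, and their calls differed by list. Relative to WT, 11.1% of all rows rose and 12.6% fell in Dgcr8 KO cells. In Dicer KO cells 12.6% of all rows rose and 13.2% fell. Of the 8 neuron markers 2 rose and 1 fell in each mutant relative to WT. Nefl stood 1.31 above WT in Dgcr8 KO cells and 0.81 above it in Dicer KO cells on the log2 scale, and the log2 ratio of Gap43 was -1.52 in Dgcr8 KO cells and -1.75 in Dicer KO cells. Stmn2, the other neuron marker that rose, was bright, averaging 11.56 in Dgcr8 KO cells, 11.38 in Dicer KO cells and 11.06 in WT cells. Of 9 fibroblast markers 1 rose in Dgcr8 KO cells (Twist1, 0.40) and 0 fell, and 0 rose and 0 fell in Dicer KO cells. Of 6 skeletal muscle markers 1 rose and 2 fell in Dgcr8 KO cells, and 0 rose and 3 fell in Dicer KO cells. On 7 rows of primitive endoderm markers 1 rose and 1 fell in Dgcr8 KO cells, and 0 rose and 2 fell in Dicer KO cells. Of 6 trophoblast markers 0 rose and 2 fell in Dgcr8 KO cells, and 1 rose and 0 fell in Dicer KO cells. Their part in the values of the locus was not tested.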

How the data were processed

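Total RNA of Dgcr8 KO, Dicer KO and WT mouse ES cells, 3 cultures per genotype, was hybridised to Affymetrix mouse gene 1.0 ST arrays, 9 in all. The log2 values of 35557 transcript clusters were made and deposited by the authors, by RMA in the study's methods and by GCRMA in the processing notes (version not given in the sources used here). Both correct the background, normalize by quantiles and summarise probes, but GCRMA also models probe GC content, which moves dim rows most, so that folds of dim rows depend on which was used. The deposited values lie between 1.63 and 15.0 and hold no detection call, so no row was called absent. Gene symbols came from the platform annotation, which gave 21789 rows 1 symbol, 1621 several and 12147 none; 3 members carry several.

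Levels were tested in limma 3.58.1 (R 4.3.3) with 1 mean per genotype over all 9 arrays (lmFit and eBayes, 6 residual and 1.92 prior degrees of freedom, two-sided). All rows entered the Benjamini-Hochberg adjustment, and a row was called at an adjusted p under 0.05. The methods' SAM was written from its description and run with all 20 label permutations per contrast. Its constant s0 was 0.203 where Dgcr8 KO was set against WT, 0.159 where Dicer KO was, and 0.107 between the mutants. Errors are the standard errors of the log2 ratio from limma.

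The members and the gene lists were chosen with earlier results of these data known, so that a call is not independent evidence for the choice. Values on every array are given for all rows of the long transcripts, for the 5 miRNA rows with the largest log2 ratio among those called in each contrast and direction, and for the 5 brightest miRNA rows. Mir376a, DQ267102 and Zfp57 were chosen after their values were seen. Hairpins and mature products were matched by symbol in RefSeq, and their folding energy was predicted with ViennaRNA 2.7.2. Alternatives were another set of rows, a filter on dim rows, 3 further normalizations, other limma settings, SAM, stricter thresholds, the replicate number as a block and leaving out each array. The limma script was tested on simulated data.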

Additional observations from a re-analysis of the deposited data

Results flagged for a closer look

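The effects of the 2 mutations relative to WT were compared by the direct limma test between Dgcr8 KO and Dicer KO cells. Among the members that the naming rule selects, 19 passed (adjusted p under 0.05), all in the same direction. Mir376a, which was chosen after its values were seen, also passed, at 2.66 (adjusted p = 0.00192). Of the selected members, Dlk1, Mir539 and Dio3 did not pass. The rule picks some rows by the size and call of this same ratio, so that the count of 19 is partly fixed by the choice. Without that choice, 39 of all 48 members passed with a positive difference and 0 with a negative one. The shares of all rows were 7.53% and 9.4%. The difference, the Dgcr8 KO effect minus the Dicer KO effect on the log2 scale, was 4.39 for Mir136, 4.06 for Mir376b, 3.74 for Mir127, 3.71 for Mir434 and 3.65 for Mir369. It was 3.00 for the Mirg and Mir410 row, 2.89 for Mir543, 2.79 for the row of Mir433 and 6430411K18Rik, 2.71 for Mir382 and 2.68 for Mir300. Smaller differences were measured for Mir679 (1.81), Mir134 (1.58), Rtl1 (0.98), the AF357355 and Rian row (0.66), Meg3 (0.65), Mir667 (0.60), Mir487b (0.54), the row of Rian alone (0.29) and Mir341 (0.24). The difference of 2 effects relative to the same WT arrays equals the Dgcr8 KO level minus the Dicer KO level. Groups of 3 arrays are too small for a test of single outlying arrays.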

How the results depend on the processing

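The count of members higher in Dgcr8 KO cells stayed within 1.5 times its value under every alternative run: 27 to 33 members rose relative to WT (29 to 32 when 1 array was left out), 33 to 44 were higher than in Dicer KO cells (34 to 41), and 27 to 32 were higher than in both (29 to 32). At an adjusted p under 0.01, 10 members fell and 0 rose in Dicer KO cells relative to WT, and with a change of at least 1.5-fold as well, 9 fell and 0 rose. That threshold left 1 member lower in Dgcr8 KO than in WT cells. Leaving out 1 array gave 12 to 20 members lower and 0 to 1 higher in Dicer KO relative to WT cells, with 0 higher without WT replicate 2 or 3 or without Dicer KO replicate 1 or 3. Relative to WT, Mir369 in Dicer KO cells turned to -0.037 with array weights and lay between -0.080 and 0.11 with 1 array left out, and Mir136 there lay between -0.31 and 0.14. Between Dgcr8 KO and Dicer KO, with 1 array left out, Mir539 lay between -0.16 and 0.023 and Dio3 between -0.18 and 0.029. None of these ratios passed the test, and the cause was not tested. With the replicate number as a block, 32 members rose and 4 fell in Dgcr8 KO relative to WT, 1 rose and 20 fell in Dicer KO relative to WT, and 40 were higher in Dgcr8 KO than in Dicer KO. The deviations of same-numbered arrays correlated between -0.117 and 0.231, over 0.1 in 3 of 9 pairs. Those of arrays with different numbers correlated between -0.342 and 0.204. These values do not settle whether arrays of 1 number share more than that number. Of the named members, Mir341 lost its call between Dgcr8 KO and Dicer KO under the block (adjusted p = 0.0823) and the Mirg and Mir410 row gained one in Dicer KO relative to WT (adjusted p = 0.0403). No alternative scaling moved the median of all rows by over 0.1, and the filter on dim rows left 45 of the 48 members. The 9 arrays limit the precision, and without detection calls the signal over background of dim rows is unknown.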
